A study of Arabidopsis thaliana with 12 samples.

Results

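The light-harvesting antenna genes were read here from a pair of array probes, 1 listed for LHB1B2 (AT2G34420) alone and 1 listed jointly for LHCB4.1, LHCB4.2 and LHCB4.3 (AT5G01530, AT3G08940 and AT2G40100). These are 2 of the 3439 probes on the array and cover 4 genes. They were chosen by the genes that the platform's probe table lists for them. The joint probe gives 1 family value, which was assigned to none of its 3 genes singly. The samples were total RNA of soil-grown Arabidopsis thaliana, all of ecotype Columbia 0, with 6 from wild type (WT) and 6 from the pete2 mutant, which is without an isoform of plastocyanin. The word soil stands in the titles of the pete2 samples and not in those of the WT samples. Sample numbers run from 1 to 6 within each genotype, with no word on whether the RNA came from separate plants. All p-values therefore rest on the spread between samples, part of which may be technical. Nothing in the sources used here gives the tissue, the plants' age, the light and time of harvest or the kind of mutant allele. The marker genes fixed for root, flower, guard cell, dividing cell and senescence, 15 in all, had 0 single-gene probes, so the tissue was not checked. PETE2, the gene that the mutant's name refers to, and its paralog PETE1 had no probe of their own either, so the genotype labels were not checked.

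Antenna proteins of photosystem II bind chlorophyll and pass absorbed light energy to the reaction centre in the thylakoid membrane. LHB1B2 is an LHCB1 gene and encodes a protein of LHCII, the abundant trimeric outer antenna. LHCB4 proteins, also called CP29, are monomeric antennae that sit between the LHCII trimers and the photosystem II core. Plastocyanin acts further along the same electron transport chain, where it carries electrons from the cytochrome b6f complex to photosystem I. Antenna genes are encoded in the nucleus, and their transcripts are known to vary with light and with the circadian clock. The LHCB1 genes are close copies of each other, and how far the LHB1B2 probe also bound transcripts of the other copies was not tested.

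The deposited LHB1B2 signal was high in 10 samples and far lower in WT samples 5 and 6. In WT the deposited intensity was 26.5, 28.4, 31.3 and 46.4 in samples 1 to 4, and 1.32 and 1.58 in samples 5 and 6. In pete2 it was 26.0, 30.4, 68.8, 82.7, 21.9 and 24.1 in samples 1 to 6. The genotypes overlapped, since pete2 samples 1, 5 and 6 lay below WT samples 1 to 4, and the highest signals were those of pete2 samples 3 and 4. The means were 22.6 ± 17.8 in WT and 42.3 ± 26.4 in pete2 (± SD over 6 samples each). The WT values spanned 35.2-fold and the pete2 values 3.77-fold. None of the 12 values was at 0, and none at the ceiling just under 100 at which the deposited intensities end. In each sample's own order of the 3439 signals, which needs no scaling, LHB1B2 stood 14th to 18th in WT samples 1 to 4, 282nd and 219th in WT samples 5 and 6, and 9th to 30th in pete2. In total RNA of a tissue, fewer cells of a type and less RNA per cell cannot be told apart.

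The LHCB4 family probe was also lowest in WT samples 5 and 6, but its other values were ordered differently. In WT its deposited intensity was 1.31, 1.30, 2.30 and 1.81 in samples 1 to 4, and 0.439 and 0.420 in samples 5 and 6. In pete2 it was 0.816, 0.764, 1.25, 1.06, 1.21 and 1.10 in samples 1 to 6. As deposited, WT samples 1 to 4 thus lay above every pete2 sample, and WT samples 5 and 6 below every pete2 sample. The first part did not hold after the quantile normalization used for the tests below. There WT samples 1 and 2 (1.28 and 1.22) lay below pete2 samples 3 and 5 (1.44 and 1.42), while WT samples 5 and 6 stayed lowest. The means were 1.26 ± 0.745 in WT and 1.03 ± 0.201 in pete2 (± SD over 6 samples each), and neither genotype had a value at 0. The WT values spanned 5.48-fold and the pete2 values 1.64-fold. A probe's signal depends on its own sequence and length, so the levels of the LHB1B2 and LHCB4 probes are not set against each other.

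**Figure D1:**
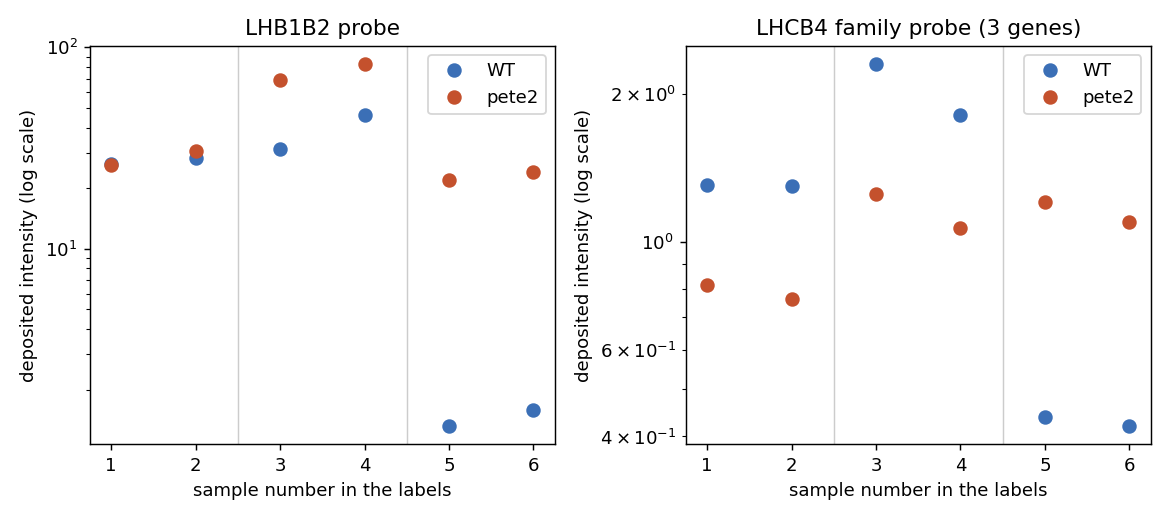
Deposited intensity (log scale) of the LHB1B2 probe and of the LHCB4 family probe against the sample number in the labels, 1 point per sample, with vertical lines between samples 2 and 3 and between 4 and 5. Both probes are lowest in WT samples 5 and 6 (1.32 and 1.58 for LHB1B2, 0.439 and 0.420 for LHCB4), and LHCB4 in WT samples 1 to 4 lies above all pete2 samples.

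Neither probe passed the test between genotypes. Intensities were quantile normalized, values under a floor were raised to it, and limma was fitted to the log2 values of 3321 probes, with Benjamini-Hochberg adjustment over all of them. LHB1B2 had a log2 difference, pete2 minus WT, of 1.50 ± 0.955 (SE), with a 95% interval from -0.57 to 3.57 (limma, adjusted p = 0.342). On the linear scale this is 2.83-fold, with an interval from 0.673 to 11.9. The LHCB4 family probe had a log2 difference of 0.36 ± 0.460 (SE), with a 95% interval from -0.63 to 1.36 (limma, adjusted p = 0.636). In fold terms it was 1.29, with an interval from 0.644 to 2.56. The two-sided exact permutation test over the 12 samples gave p = 0.266 for LHB1B2 and p = 0.472 for LHCB4. Of all probes tested, 372 were called, which is 11.2% (4.91% higher and 6.29% lower in pete2, and 9.76% in all with the sample number as a block), and 0 of the 2 antenna probes were among them. In the fit over 12 samples without that block, neither reached an unadjusted p under 0.05 (0.141 for LHB1B2 and 0.446 for LHCB4). These intervals include a level more than 2-fold higher in pete2 for both probes, so a difference of that size could not be told from none.

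Consecutive sample numbers of a genotype gave like values for the antenna probes. The meaning of the numbers is not stated, and whether such pairs (1 with 2, 3 with 4, 5 with 6) measure the same material again was not tested. Within these pairs the deposited LHB1B2 values differed by 1.07-fold to 1.48-fold in WT and by 1.10-fold to 1.20-fold in pete2. For LHCB4 they differed by 1.01-fold to 1.27-fold in WT and by 1.07-fold to 1.17-fold in pete2. With the pairs averaged, n is 3 a genotype, and the 95% interval of the log2 difference widened to -1.65 to 4.65 for LHB1B2 and to -1.18 to 1.91 for LHCB4 (limma, adjusted p = 0.604 and 0.803). Over all tested probes the pairs were less alike in pete2: the r of the samples' deviations from their genotype mean was 0.28, 0.40 and 0.47 for samples 1 and 2, 3 and 4, and 5 and 6 of WT, and 0.20, 0.05 and -0.08 for those of pete2. Deviations from a mean that includes the samples themselves lean below 0 even for unrelated samples, so an r near 0 does not show that a pair was unlike. In the fit with pairs averaged 0.331% of the probes were called, against 5.06% with the pairs as a random block. The random block fit put the correlation within pairs at 0.52, as 1 value for both genotypes.

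The genotype difference varied with the pair of numbers taken. For LHB1B2 the normalized log2 difference was -0.13 in samples 1 and 2, 0.75 in samples 3 and 4, and 3.89 in samples 5 and 6. For LHCB4 it was -0.71, -0.31 and 2.10 in the same order. The LHCB4 probe was therefore lower in pete2 in samples 1 to 4 and higher in samples 5 and 6. As deposited, WT was 1.65-fold and 1.77-fold above pete2 for LHCB4 in samples 1 and 2 and in samples 3 and 4, while pete2 was 2.68-fold above WT in samples 5 and 6. With samples 5 and 6 of both genotypes left out, the log2 difference of LHCB4 was -0.51 (limma, adjusted p = 0.259) and that of LHB1B2 was 0.29 (adjusted p = 0.558). Leaving out WT sample 5 alone lowered the LHB1B2 difference to 0.82 and that of LHCB4 to 0.08, and leaving out WT sample 6 alone gave 0.91 and 0.06. The labels do not tie a number in WT to the same number in pete2, so these values are a description by number and not a paired test.

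**Figure D2:**
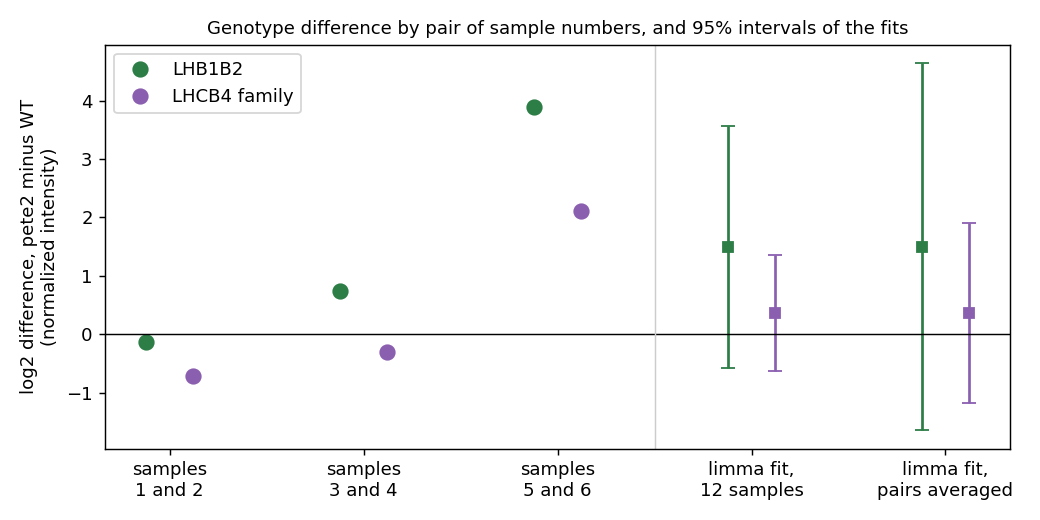
Log2 difference, pete2 minus WT, of normalized intensity. The 3 positions on the left are differences of pair means within each pair of sample numbers, with no error, and the 2 on the right are the limma estimates with 95% intervals over 12 samples and over pair means. The LHCB4 points lie at -0.71, -0.31 and 2.10, the LHB1B2 point of samples 5 and 6 lies at 3.89, and all 4 intervals include 0.

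Whether the antenna probes responded differently from each other was tested on their ratio within each sample. The size of this ratio has no meaning of its own, and only its change between samples is read. As deposited, the LHB1B2 over LHCB4 ratio was 20.3, 21.9, 13.6, 25.6, 3.001 and 3.77 in WT samples 1 to 6. In pete2 it was 31.9, 39.8, 55.1, 77.7, 18.2 and 22.0. The lowest ratios were again those of WT samples 5 and 6. In pete2 4 samples lay above every WT sample, and pete2 samples 5 and 6 overlapped with WT samples 1 to 4. On normalized values the log2 ratio averaged 3.76 ± 1.37 in WT and 4.90 ± 0.876 in pete2 (± SD over 6 samples each). This difference of 1.14, a 2.20-fold higher ratio in pete2, did not pass the test (two-sided exact permutation p = 0.130).

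The call on the ratio changed with the scaling, with the samples used and with the sample number as a block. A factor common to a whole sample cancels in it, so deposited and median-centred intensities gave the same log2 difference of 1.71, or 3.28-fold (exact permutation p = 0.0173). Quantile normalization scales bright and dim probes of a sample differently and gave the smaller 1.14. With the sample number as a block this 1.14 passed (exact permutation within numbers, p = 0.03125, the smallest that 6 numbers allow). The ratio was higher in pete2 in 6 of 6 numbers, but the labels do not tie a number in WT to the same number in pete2. With samples 5 and 6 of both genotypes left out the normalized difference was 0.80 (exact permutation p = 0.0286, the smallest p that 4 samples a genotype allow). This p takes the 4 samples as separate, though they came as pairs with like values. With the pairs averaged the exact permutation p was 0.20 on deposited and 0.40 on normalized values, where 0.10 is the smallest p that 3 against 3 allow. By pair of numbers the deposited ratio was 1.69-fold, 3.51-fold and 5.95-fold higher in pete2 in samples 1 and 2, 3 and 4, and 5 and 6. It was the 1 ratio of this kind that was computed.

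**Figure D3:**
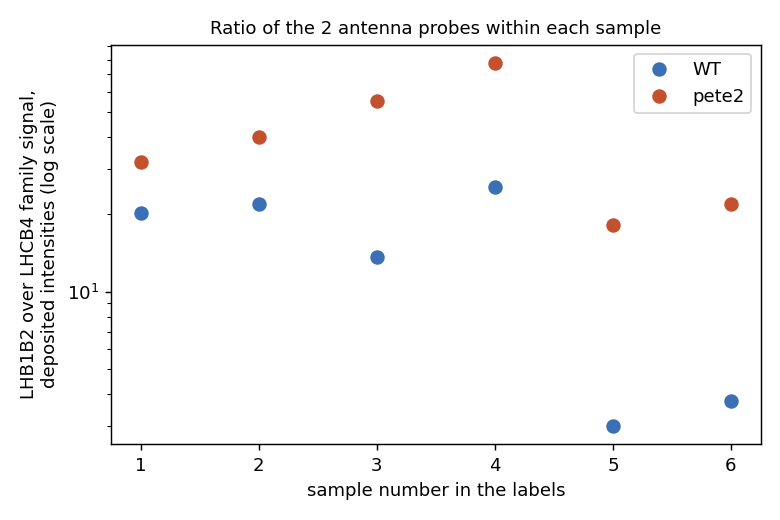
Ratio of deposited LHB1B2 over LHCB4 family intensity (log scale) against the sample number in the labels, 1 point per sample. WT samples 5 and 6 have the lowest ratios (3.001 and 3.77), and pete2 samples 1 to 4 lie above all WT samples.

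The low antenna signals of WT samples 5 and 6 were large beside the spread of other probes. Among the 1740 probes above 0 in every sample, the range of the 3 WT pair means was a median of 0.97 on the log2 scale. It was 4.86 for LHB1B2, a 29.1-fold range and the 10th largest, and 2.40 for LHCB4, a 5.27-fold range and the 165th largest. In pete2 the range was 1.72 for LHB1B2, the 260th, and 0.82 for LHCB4, the 1093rd, beside a median of 1.01. The mean absolute difference between samples of a WT pair was 0.28 for LHB1B2 and 0.18 for LHCB4 on the log2 scale, and its median over the 1740 probes was 0.27. WT samples 5 and 6 were together the lowest of the 12 samples for 242 of the 1740 probes, or 13.9%, both antenna probes included, and together the highest for 270, or 15.5%. For the 5 other pairs of the design the lowest share was 3.79% and the highest 10.5% on either side. As whole samples, WT samples 5 and 6 had 15.8% and 15.7% of probes at 0 and median deposited intensities of 0.184 and 0.193, so their signals were not low in general. In pete2 the share at 0 was 17.2% and 17.1% in samples 1 and 2 and 30.7% and 28.6% in samples 5 and 6. The part of these sample differences in the antenna values was not tested.

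**Figure D4:**
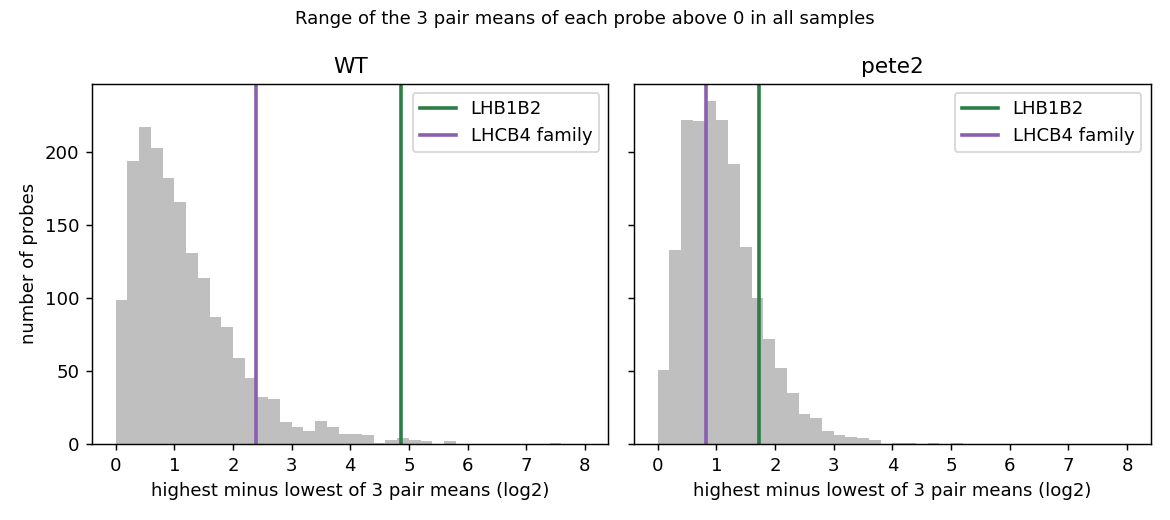
Number of probes by the range of their 3 pair means (highest minus lowest, log2 normalized intensity) in WT and in pete2, over the 1740 probes above 0 in all samples, with lines for the antenna probes. In WT LHB1B2 lies far out in the tail at 4.86 and LHCB4 at 2.40, and in pete2 they lie at 1.72 and 0.82.

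Of the genes measured with their own probe, those most like LHB1B2 over the 12 samples shared its low values in WT samples 5 and 6. Likeness was the Pearson r of normalized log2 values, given as a description because the values share each sample's array and scaling and the pairs above. WT samples 5 and 6 hold most of the spread of LHB1B2, so choosing genes by r over these samples largely fixes that they are low there, and that their genotype differences resemble its own. The 5 genes with the highest r were CCL (CCR-LIKE, AT3G26740, 0.977), AT3G26630 (0.972), ATSPS4F (AT4G10120, a sucrose phosphate synthase, 0.957), AT5G38360 (0.954) and AT1G12800 (0.949). CCL had mean deposited intensities of 7.09, 8.18 and 2.04 in the WT pairs and 6.59, 13.2 and 6.29 in the pete2 pairs, in the order of their numbers. AT3G26630 had 16.5, 19.2 and 1.78 in WT and 18.4, 40.6 and 19.9 in pete2. All 5 genes were lowest of the 12 samples in WT samples 5 and 6, as was LHB1B2, and 0 of the 5 were called between genotypes (limma, adjusted p from 0.152 to 0.676, beside 11.2% of all probes called), with 1 at an unadjusted p under 0.05. Without WT samples 5 and 6 the r fell to between 0.502 (AT1G12800) and 0.871 (CCL).

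For the LHCB4 probe the 5 genes most alike were AT1G12800 (r = 0.945), PRK (AT1G32060, 0.943), AT2G04700 (0.912), AT5G38360 (0.881) and AT3G26630 (0.875). PRK encodes phosphoribulokinase of the Calvin cycle, and AT2G04700 the catalytic subunit of ferredoxin-thioredoxin reductase. PRK had mean deposited intensities of 2.14, 3.40 and 1.21 in the WT pairs and 1.70, 2.52 and 1.94 in the pete2 pairs. AT2G04700 had 0.236, 0.401 and 0.0998 in WT and 0.197, 0.366 and 0.305 in pete2. These 5 genes were also lowest in WT samples 5 and 6, and 0 of them were called (limma, adjusted p from 0.152 to 0.676, with 1 at an unadjusted p under 0.05). AT1G12800, AT5G38360 and AT3G26630 were among the 5 most alike for both antenna probes. Without WT samples 5 and 6 their r with LHCB4 was 0.707, 0.293 and -0.09 in that order, and that of PRK and AT2G04700 was 0.737 and 0.744. LHCB4 itself had an r of 0.873 with LHB1B2, the 77th highest of 1739 probes. This r was 0.08 without WT samples 5 and 6, so the likeness of the antenna probes rested on those samples.

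**Figure D5:**
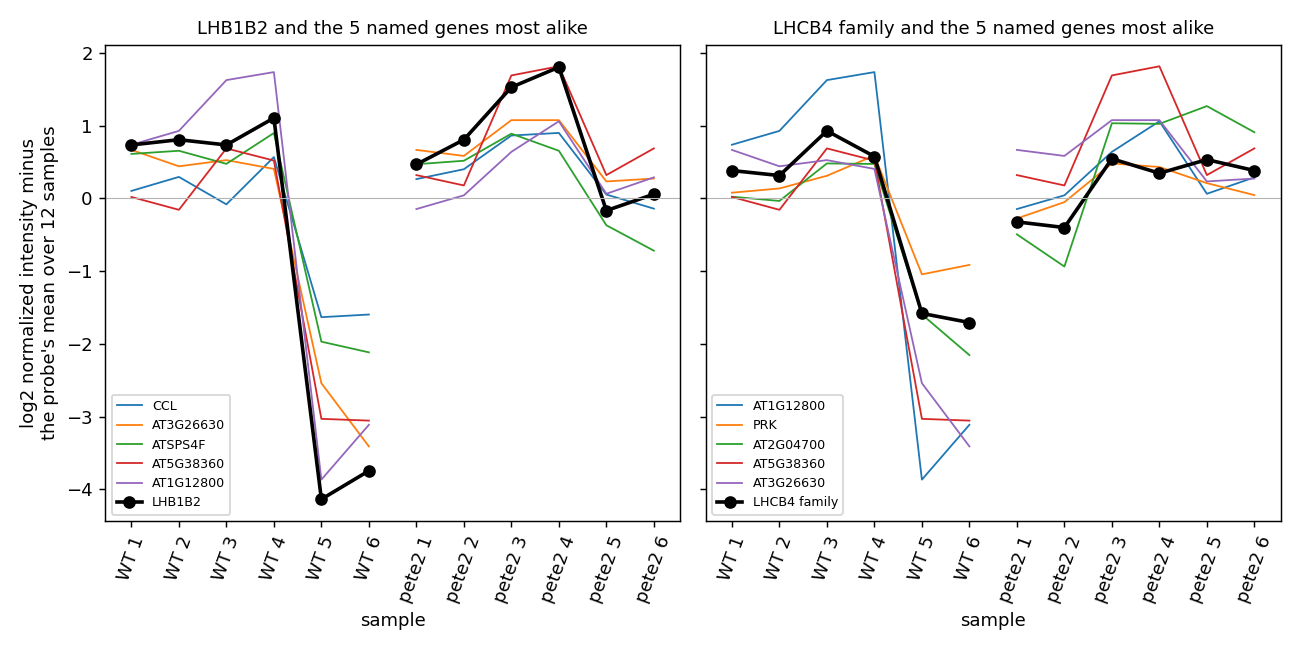
Log2 normalized intensity minus the probe's own mean over 12 samples, for LHB1B2 (left) and the LHCB4 family probe (right) in black with points, and for the 5 named genes most like each in colour. Lines only join the values of a probe within a genotype and mark no order. All lines are lowest in WT samples 5 and 6, where LHB1B2 and LHCB4 lie below every other sample.

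Some probes close in number to LHB1B2 had its profile as well. LHB1B2 is probe 2665, and of the 10 probes most like it 3 lay at a distance of 12 or 24 numbers, CCL at probe 2653 and the unnamed probes 2677 and 2689, chosen after seeing their values. Probe 2677 had deposited intensities of 25.2 to 40.3 in WT samples 1 to 4, 2.42 and 2.50 in WT samples 5 and 6, and 19.1 to 65.8 in pete2 (r = 0.985 with LHB1B2). Probe 2689 had 21.6 to 32.1, 2.58 and 2.70, and 27.4 to 67.2 (r = 0.970). Probe 2641, 24 numbers away on the other side and listed for several genes, shared only a part of the profile. It was also low in WT samples 5 and 6, at 0.0860 and 0.121 against 0.925 to 1.58 in WT samples 1 to 4. Unlike LHB1B2 it was low in pete2 as well, at 0.0797 or less. Over all probes above 0 in every sample, the median r between probes 12 numbers apart was 0.228, the 8th highest of the distances from 1 to 60, whose median was 0.154. The median r was highest at a distance of 6 (0.318) and next at 1 (0.287). At 24 it was 0.250, the 5th highest, beside 0.177 at 23 and 0.154 at 25. The value at 12 lay between 6 and 24 in number but below both, and above 0.196 at 11 and 0.212 at 13. Each multiple of 6 likewise had a higher median r than the distances next to it. The 10 probes most like LHCB4, probe 3446, included 6 unnamed ones, and 1 lay a multiple of 12 away. The array's layout and the probes' sequences are not analysed here, and the part of probe position in the LHB1B2 values was not tested.

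Other antenna genes could not be followed. Of the 21 LHCA and LHCB genes listed as the light-harvesting antenna, 4 had a probe of their own or a probe shared within the list, and these are the genes described above. Of 15 genes of antenna relatives, assembly and regulation, among them PSBS, STN7 and the GLK factors, 0 did, and likewise 0 of the 8 genes of plastocyanin, the cytochrome b6f complex and ferredoxin. The 2 antenna probes, neither of them called, had log2 differences of 1.50 and 0.36. Their median was 0.93, beside -0.01 over all 3321 probes. With samples 5 and 6 of both genotypes left out the antenna differences were 0.29 and -0.51, so the median gives no common direction. Photosystem subunits were measured by 4 probes, of which 2 rose and 0 fell (11.2% of all probes were called), and the median log2 difference of the 3 photosystem II probes was 0.61. PSAN, a lumenal subunit of photosystem I, was higher in pete2 by 1.33 ± 0.172 (SE) on the log2 scale (limma, adjusted p = 0.00034), and PSBY, a small photosystem II protein, by 0.91 ± 0.203 (SE, adjusted p = 0.0126). With pairs averaged neither passed (adjusted p = 0.132 and 0.286). The log2 difference was 0.61 for PSBW and -0.62 for the photosystem II assembly factor PSB27 (adjusted p = 0.187 and 0.469). The low signals of WT samples 5 and 6 were not shared by PSBY, PSBW and PSB27. In these samples PSBY had 2.82 and 2.59 against 2.13 to 2.79 in WT samples 1 to 4, PSBW had 21.9 and 20.3 against 10.8 to 33.1, and PSB27 had 3.96 and 3.69 against 0.550 to 3.23. PSAN had 3.04 and 3.29 there, below its other WT values, which reached 4.84.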

How the data were processed

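For each probe and sample the authors deposited 1 linear intensity. No label or file header says how this intensity was scanned, background corrected or scaled. The number of arrays limits the precision. Of the 3439 probes, the platform's table lists 1 gene for 692, several for 870, and none for the other 1877, and symbols were updated by gene ID through RefSeq TAIR10.1. Intensities were quantile normalized, a floor was set at the 1st percentile of positive normalized values (0.00560), also for values deposited as 0, before taking log2. Leaving out 118 probes at 0 in every sample, 3321 were tested. limma 3.58.1 in R 4.3.3 (lmFit, eBayes with an intensity trend) compared pete2 with WT at an adjusted p threshold of 0.05, and exact permutation tests were run on single values. The code was tested on simulated data. The members and gene lists were chosen with earlier results of these data known. Named genes are the members, measured list members, and for each antenna probe the 5 single-gene probes above 0 in all samples with the highest r. Same-numbered samples of WT and pete2 were not taken as paired in the main fit, since no label ties them. The r of their deviations from the genotype means ran from 0.02 to 0.28, which does not settle whether they are paired.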

Additional observations from a re-analysis of the deposited data

Results flagged for a closer look

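PSB27 in pete2 had a sample far below the others, at a gap of 0.657 of the group's log2 range, above the critical value for 6 samples. It was sample 2, with a deposited intensity of 0.572 against 1.25 or more in the other pete2 samples. WT sample 2 was also the lowest of its genotype, at 0.550. Of 26 groups of samples examined 1 was found, and about 1 in 20 is what chance gives where the samples are separate. Whether likeness within the pairs of numbers changes this rate was not tested. Neither antenna probe had such a sample, since WT samples 5 and 6 were low together.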

How the results depend on the processing

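No alternative that was run gave a call for LHB1B2 or LHCB4. For LHB1B2 the adjusted or exact p lay between 0.125 (exact, within sample numbers) and 0.70. Its log2 difference was 0.82 to 1.87 without each sample in turn and 0.29 without samples 5 and 6 of both genotypes. By pair it was -0.13 in samples 1 and 2 alone and 3.89 in samples 5 and 6 alone. LHCB4 turned to -0.0413 without scaling (adjusted p = 0.957) and to -0.51 without samples 5 and 6 of both genotypes. Without scaling the median log2 difference of all tested probes was -0.63 and 13.5% of 445 calls were higher in pete2, against 43.8% of the 372. With median centring the median was -0.16 and the share 35.7%. LHCB4 was -0.71 in samples 1 and 2 alone, 2.10 in samples 5 and 6 alone, and 0.06 to 0.58 without each sample in turn. The log2 ratio difference of 1.14 became 1.71 without scaling and with median centring (exact p = 0.0173). It was 0.80 without samples 5 and 6 (exact p = 0.0286, the smallest that 4 samples a genotype allow), and 0.74 to 1.38 without each sample in turn. With the replicate number as a block it stayed 1.14 and passed (exact p = 0.03125, the smallest that 6 pairs allow), with a higher ratio in pete2 in 6 of 6 numbers. The r of same-numbered samples ran from 0.02 to 0.28, and 4 of 6 WT samples had their best partner under their own number. Whether the numbers pair the samples is not stated and is not settled by these values. With this block neither antenna probe passed, LHB1B2 having an unadjusted p of 0.0482 in limma (adjusted p = 0.183, 95% interval of the log2 difference 0.016 to 2.98), PSAN and PSBY remained called, and 324 probes were called in place of 372. The 372 calls became 168 with the pairs as a random block and 11 with pairs averaged, where 0 of the 6 photosynthesis probes were called instead of 2. The ratio was not refitted with the random block, other filters or the trend, which do not enter its test. The causes of these changes were not tested.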
